A study of Sus scrofa with 35 samples.

Results

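Messenger RNA for the T cell receptor complex and the first steps of its signalling was measured in whole blood of pigs. The 10 genes considered were CD3D, CD3E, CD3G, CD247, CD4, CD5, CD6, CD28, LCK and ZAP70. They were located by name: a probe was a member when the gene name in the scanner file, written in capitals, equalled one of these symbols. This gave 19 probes for 7 of the 10 genes, among 60305 distinct probes that were no controls, and all 19 were among the 39072 probes of the deposited log2 table. No probe carried the name CD6, CD28 or ZAP70, and these genes were not analysed here.

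Blood came from 35 growing castrated males of Creole (CR), Large White (LW) and their F1 cross, with 1 one-colour array per pig. Thermoneutral (TN) pigs were labelled 24 °C and heat stressed (HS) pigs 30 °C, whereas the protocol gives 32 °C for 5 days. There were 5 CR TN pigs and 6 pigs in each of the groups CR HS, F1 TN, F1 HS, LW TN and LW HS. According to the methods of the study, TN pigs were slaughtered before the temperature was raised and HS pigs after it. By the same methods, some HS pigs were slaughtered before the full 5 days. Each pen had 1 climate, and littermates were divided between pens. Climate therefore cannot be told apart from day of slaughter, age at slaughter or pen. The paper also reports that feed intake fell under heat, and no TN pigs were held to that intake, so its part cannot be told apart either. Pigs of a litter, pen or slaughter day are treated as independent in every p-value here because the labels give none of these.

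The T cell receptor recognises a peptide presented by another cell, but its own recognising chains have no signalling domain. They are held at the surface together with the CD3 chains (delta, epsilon and gamma, the products of CD3D, CD3E and CD3G) and the zeta chain (CD247), whose cytoplasmic tails carry tyrosines that are phosphorylated on engagement. LCK, a Src family kinase carried by the coreceptors CD4 and CD8, phosphorylates these tyrosines, and ZAP70 then docks on them. CD5 and CD6 are related surface receptors that temper the signal, and CD28 provides costimulation. In blood these genes are mostly transcribed by T cells, with CD247 and LCK also active in natural killer cells and, in pigs, CD4 also found on some dendritic cells.

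Every probe had 60 bases, and the array placed 3 probes on CD3D, 2 on CD3E, 2 on CD3G, 3 on CD247, 3 on CD4, 2 on CD5 and 4 on LCK. The 5 probes below are shown because the results turn on them: a pair for CD3D whose ends overlap and that was higher in HS, the CD3G probe that stood apart from the other genes, and the probes of CD247 and LCK with the largest HS minus TN difference of their gene. They are written 5′ to 3′ as in the scanner files, and the capitals mark the 8 bases that the end of the one CD3D probe shares with the start of the other.
CD3D A_72_P504254: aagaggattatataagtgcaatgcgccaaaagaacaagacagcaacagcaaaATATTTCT
CD3D A_72_P185936: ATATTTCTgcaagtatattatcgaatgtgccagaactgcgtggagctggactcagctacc
CD3G A_72_P088461: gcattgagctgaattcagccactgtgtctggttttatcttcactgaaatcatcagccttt
CD247 A_72_P186391: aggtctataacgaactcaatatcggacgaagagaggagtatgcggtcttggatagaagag
LCK A_72_P155131: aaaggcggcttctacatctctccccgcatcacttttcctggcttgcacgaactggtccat

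The 19 probes held 18 distinct sequences, since CD4 A_72_P077421 and CD4 O5495 were the same 60 bases at separate spots. The CD3E probes A_72_P165731 and O2506 shared 51 bases, so they are close to a repeat of 1 measurement. LCK A_72_P338103 had the same 60 bases as a probe that the files name TXLNA, a gene of vesicle traffic, and its gene is therefore uncertain. In the RefSeq gene table of assembly Sscrofa 11.1, which was used only for names and order, CD3E, CD3D and CD3G lie next to each other. GC content of the 19 probes was 35.0% to 55.0%, and 18 of 19 were well above background on all 35 arrays. The exception was CD4 A_72_P306178, which reached that level on 14 of 35 arrays and on 0 of the 6 F1 TN arrays, so no fold is given for it.

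Arrays correlated with one another with r of 0.906 to 0.992 over the probes of the table, and each of the 35 deposited columns correlated best with the scanner values of its own array. F1 TN arrays were the dimmest on average. The 75th percentile of their processed intensity was 112 to 186, against 172 to 266 on F1 HS arrays and 145 to 329 in CR and LW pigs. Normalization had brought the median of every array to between 7.13 and 7.14 on the log2 scale.

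For 5 of the 7 measured genes, at least 1 probe was higher in HS than in TN blood and passed the test. These were CD5 (2 of 2 probes), CD4 (2 of 3), CD3D (2 of 3), LCK (2 of 4) and CD247 (1 of 3). With the brightest probe of each gene only CD4 and CD5 passed. No probe of CD3E or CD3G passed. Over all breeds, 9 of the 19 probes were differentially expressed between HS and TN and all 9 were higher in HS. Among all probes 34.8% were called, made up of 20.1% higher and 14.7% lower in HS. The log2 difference was above 0 for 18 of 19 member probes, against 59.8% of all probes, and its median was 0.22 against 0.06. Leaving out the probe shared with TXLNA gave 8 of 18, and counting each sequence once gave 7 of 17. The test was limma with breed and climate as additive terms over all 35 pigs. Benjamini-Hochberg adjustment covered the 39072 probes, with a threshold of 0.05. At the same threshold the study's model, with random effects of pen, slaughter day, father and mother, called far fewer probes in blood. Pigs that share any of these are treated as independent here, which the adjusted p-values do not allow for. In whole blood, a change in the number of cells of a type and a change in RNA per cell cannot be told apart.

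**Figure D1:**
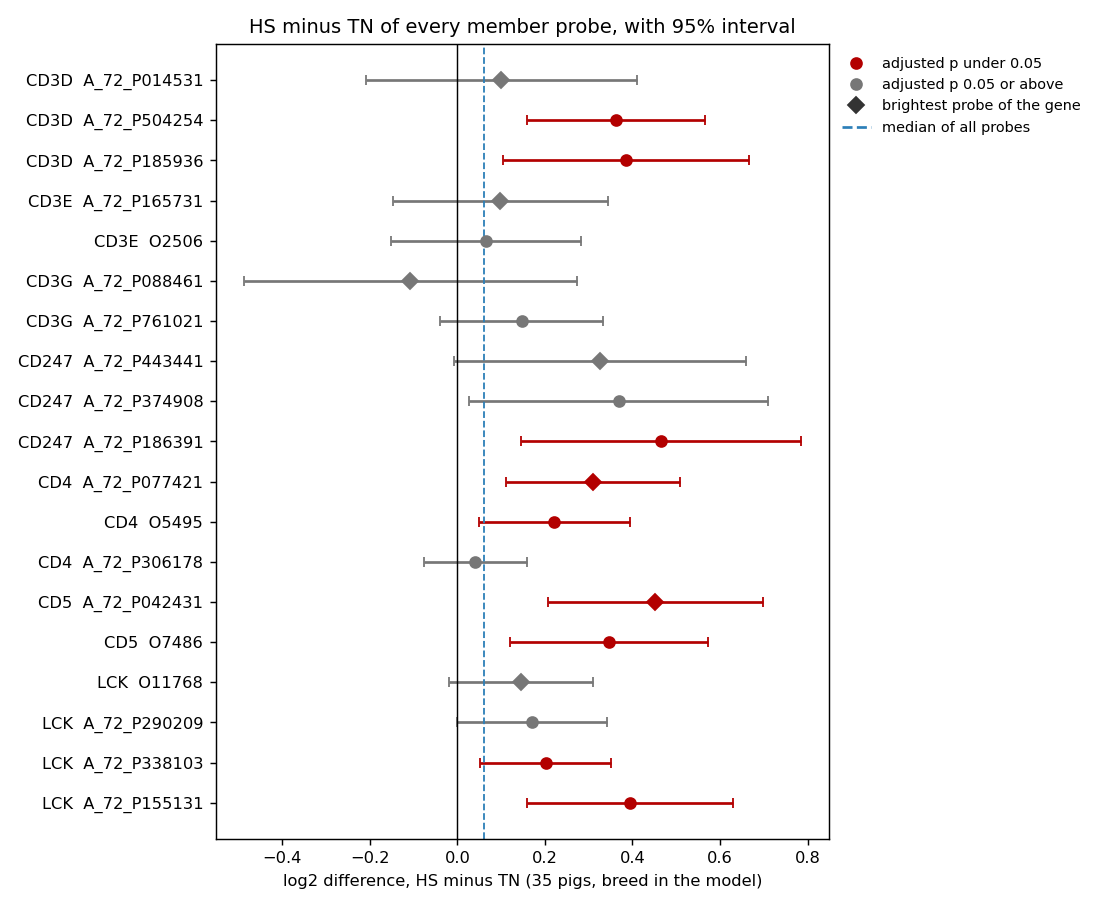
Log2 difference HS minus TN (horizontal axis) of each of the 19 probes, with its 95% confidence interval from limma over 35 pigs and with the probes past an adjusted p of 0.05 marked. The 9 marked probes lie between 0.20 and 0.47, and CD3G A_72_P088461, at −0.11, is the single probe below 0.

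CD3D, the delta chain, was read by 3 probes that did not give the same result. On the log2 scale the 5 CR TN pigs had 7.28, 7.53, 7.60, 7.78 and 8.11 with A_72_P504254, and the CR HS pigs ranged from 7.04 to 8.28 with a median of 8.04. F1 TN pigs ranged from 7.23 to 7.89 (median 7.68) and F1 HS pigs from 7.83 to 8.46 (median 8.25). LW TN pigs ranged from 7.66 to 8.31 (median 8.00) and LW HS pigs from 8.10 to 8.57 (median 8.28). The climates overlapped in each breed, with 3 CR, 4 F1 and 3 LW HS pigs above every TN pig of their breed. The HS minus TN difference was 0.36 (SE 0.10, 1.29-fold, limma adjusted p = 0.00704), and 16 of 18 HS pigs lay above the TN mean of their breed. The probe whose start overlaps its end, A_72_P185936, gave 0.39 (SE 0.14, 1.31-fold, adjusted p = 0.0298). The third probe, A_72_P014531, gave 0.10 (95% CI −0.21 to 0.41, adjusted p = 0.626).

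The zeta chain gene CD247 had the largest difference of any member probe. The 5 CR TN pigs had log2 values of 8.95, 9.42, 9.51, 10.22 and 10.28 with A_72_P186391, and CR HS pigs ranged from 8.83 to 10.75 (median 10.05). F1 TN pigs ranged from 9.15 to 10.22 (median 9.46) and F1 HS pigs from 9.68 to 10.86 (median 10.6). LW TN pigs ranged from 9.61 to 10.6 (median 9.92) and LW HS pigs from 9.98 to 10.78 (median 10.3). The ranges overlapped in all breeds, and 4 F1 HS pigs exceeded every F1 TN pig against 1 pig in CR and 1 in LW. This probe rose by 0.47 (SE 0.16, 95% CI 0.15 to 0.79, 1.38-fold, limma adjusted p = 0.0222). The other CD247 probes had differences of 0.37 (A_72_P374908, adjusted p = 0.0842) and 0.33 (A_72_P443441, adjusted p = 0.118), which did not pass.

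CD3E and CD3G, the epsilon and gamma chains, were not called with any probe. With CD3E A_72_P165731 the 5 CR TN pigs had 11.34, 11.39, 11.65, 12.03 and 12.10 on the log2 scale, and CR HS pigs ranged from 10.83 to 12.24. F1 TN pigs ranged from 11.06 to 12.21 (median 11.69) and F1 HS pigs from 11.29 to 12.45 (median 11.99), and in LW the medians were 12 and 11.93. The climates overlapped over most of their range in every breed. The CD3E difference was 0.10 (SE 0.12, 95% CI −0.15 to 0.34, adjusted p = 0.544) and that of the overlapping probe O2506 was 0.06 (adjusted p = 0.658). For CD3G the probes were −0.11 (A_72_P088461, 95% CI −0.49 to 0.27, adjusted p = 0.674) and 0.15 (A_72_P761021, 95% CI −0.04 to 0.33, adjusted p = 0.208). With A_72_P088461, 8 of 18 HS pigs lay above the TN mean of their breed.

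CD5, the inhibitory receptor, was higher in HS with both of its probes. The 5 CR TN pigs had log2 values of 10.83, 11.08, 11.29, 11.49 and 11.63 with A_72_P042431, and CR HS pigs ranged from 10.91 to 12.13 (median 11.51). F1 TN pigs ranged from 10.2 to 11.67 (median 11.2) and F1 HS pigs from 11.51 to 12 (median 11.76). LW TN pigs ranged from 11.37 to 11.72 (median 11.52) and LW HS pigs from 11.26 to 12.29 (median 11.86). In LW 5 of 6 HS pigs lay above the highest TN pig and 1 below the lowest, while in F1 4 of 6 HS pigs exceeded every TN pig. The difference was 0.45 (SE 0.12, 95% CI 0.21 to 0.70, 1.37-fold, limma adjusted p = 0.00577) with this probe and 0.35 (SE 0.11, 1.27-fold, adjusted p = 0.0172) with O7486.

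CD4, the coreceptor for class II molecules, rose by 0.31 with A_72_P077421 (SE 0.10, 95% CI 0.11 to 0.51, 1.24-fold, limma adjusted p = 0.0149). The second spot of the same sequence, O5495, gave 0.22 (SE 0.09, 1.17-fold, adjusted p = 0.0416), a call that was lost when any 1 of 17 of the 35 pigs was left out, and both spots had r = 0.87 over the 35 pigs. The 5 CR TN pigs had log2 values of 6.21, 6.25, 6.33, 6.40 and 6.54, and CR HS pigs ranged from 6.40 to 6.97 (median 6.69). F1 TN pigs ranged from 5.80 to 6.66 (median 6.43) and F1 HS pigs from 6.57 to 6.86 (median 6.71). LW TN pigs spread from 5.81 to 7.11 and LW HS pigs from 6.51 to 7.39, with medians of 6.77 in both. In CR and in F1, 4 of 6 HS pigs lay above every TN pig of their breed, and in LW 1 did. Over all breeds 17 of 18 HS pigs lay above the TN mean of their breed.

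LCK, the kinase that starts the cascade, was read by 4 probes, of which 2 passed. With A_72_P155131 the 5 CR TN pigs had log2 values of 7.35, 7.50, 7.57, 7.86 and 7.95, and CR HS pigs ranged from 7.74 to 8.42 (median 8.20). F1 TN pigs ranged from 7.26 to 8.10 (median 7.93) and F1 HS pigs from 7.74 to 8.75 (median 8.36). LW TN pigs ranged from 7.25 to 8.69 (median 7.87) and LW HS pigs from 7.79 to 8.64 (median 8.12). The climates overlapped in each breed, and 15 of 18 HS pigs lay above the TN mean of their breed. The difference was 0.40 (SE 0.12, 1.32-fold, limma adjusted p = 0.00982). The probe shared with TXLNA, A_72_P338103, gave 0.20 (SE 0.07, adjusted p = 0.0326), and LCK A_72_P290209 and LCK O11768 gave 0.17 and 0.15 with adjusted p of 0.110 and 0.155.

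Averaging the probes of a gene before the test called 4 of 7 genes, all higher in HS: CD5 (0.40, adjusted p = 0.00522), LCK (0.23, adjusted p = 0.0176), CD4 (0.19, adjusted p = 0.0231) and CD3D (0.28, adjusted p = 0.0490). CD247 had 0.39 with an adjusted p of 0.0505. The LCK mean includes the probe shared with TXLNA, and the CD4 mean includes the probe that was mostly not well above background. The CD4 mean also counts 1 sequence as 2 probes, A_72_P077421 and O5495. Taking instead the brightest probe of each gene called 2 of 7, CD4 and CD5, or 28.6% against 39.6% of all 8897 named genes. The share of all genes called after averaging was not counted, so the 4 of 7 cannot be read against that of all genes. The choice of probe thus decided the call for CD3D, CD247 and LCK.

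Within breeds, the member probes were called in F1 pigs and in no other breed. In F1, 9 of 19 probes were higher in HS, with 38.7% of all probes called (20.8% as higher) and a median log2 difference of 0.46 for the members against 0.13 for all. The 3 CD247 probes rose by 0.79 to 0.83 in F1 (limma adjusted p of 0.0145 to 0.0243). CD3D A_72_P185936 rose by 0.80 (SE 0.23, adjusted p = 0.00713), CD5 by 0.73 and 0.67 with its 2 probes (adjusted p of 0.00631 and 0.00553) and LCK A_72_P155131 by 0.49 (adjusted p = 0.0483). CD4 A_72_P077421 gave 0.36 in F1 with an adjusted p of 0.0901. CD3E A_72_P165731 gave 0.29 (adjusted p = 0.259) and CD3G A_72_P088461 −0.12 (adjusted p = 0.782).

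In CR and in LW pigs limma called 0 of the 39072 probes, with smallest adjusted p of 0.557 and 0.563. At an unadjusted p under 0.05, 1 member probe passed in CR (8.87% of all probes) and 0 passed in LW (8.71% of all probes). The CR probe was LCK A_72_P155131, with a log2 difference of 0.50. The member median was 0.14 in CR and 0.11 in LW, against 0.03 and 0.01 for all probes. Above 0 lay 15 and 17 of 19 member probes, against 56.1% and 52.7% of all probes. CD3D A_72_P014531 was one of the LW probes below 0, at −0.37 (SE 0.24, 95% CI −0.86 to 0.12).

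The effect of HS was not shown to differ between breeds. The breed by climate interaction called 0 probes of the table (5807 at an unadjusted p under 0.05, 14.9%), and 2 member probes had an unadjusted p under 0.05, CD3D A_72_P014531 (adjusted p = 0.292) and LCK A_72_P338103 (adjusted p = 0.302). For the HS effect of F1 minus that of LW, 4 member probes had an unadjusted p under 0.05, where 22.7% of all probes did and 0 passed after adjustment. The largest of these was CD3D A_72_P014531, with 0.96 (SE 0.34, adjusted p = 0.125). For F1 minus CR the count was 1 member probe, LCK A_72_P338103, against 11.8% of all probes, and 0 passed after adjustment. HS and TN pigs did not overlap for 1 member probe in F1, LCK A_72_P338103, where the highest TN value was 8.89 and the lowest HS value 8.94, against 11.7% of all probes in that breed. The same count was 0 in CR and 0 in LW, against 0.461% and 0.781% of all probes.

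**Figure D2:**
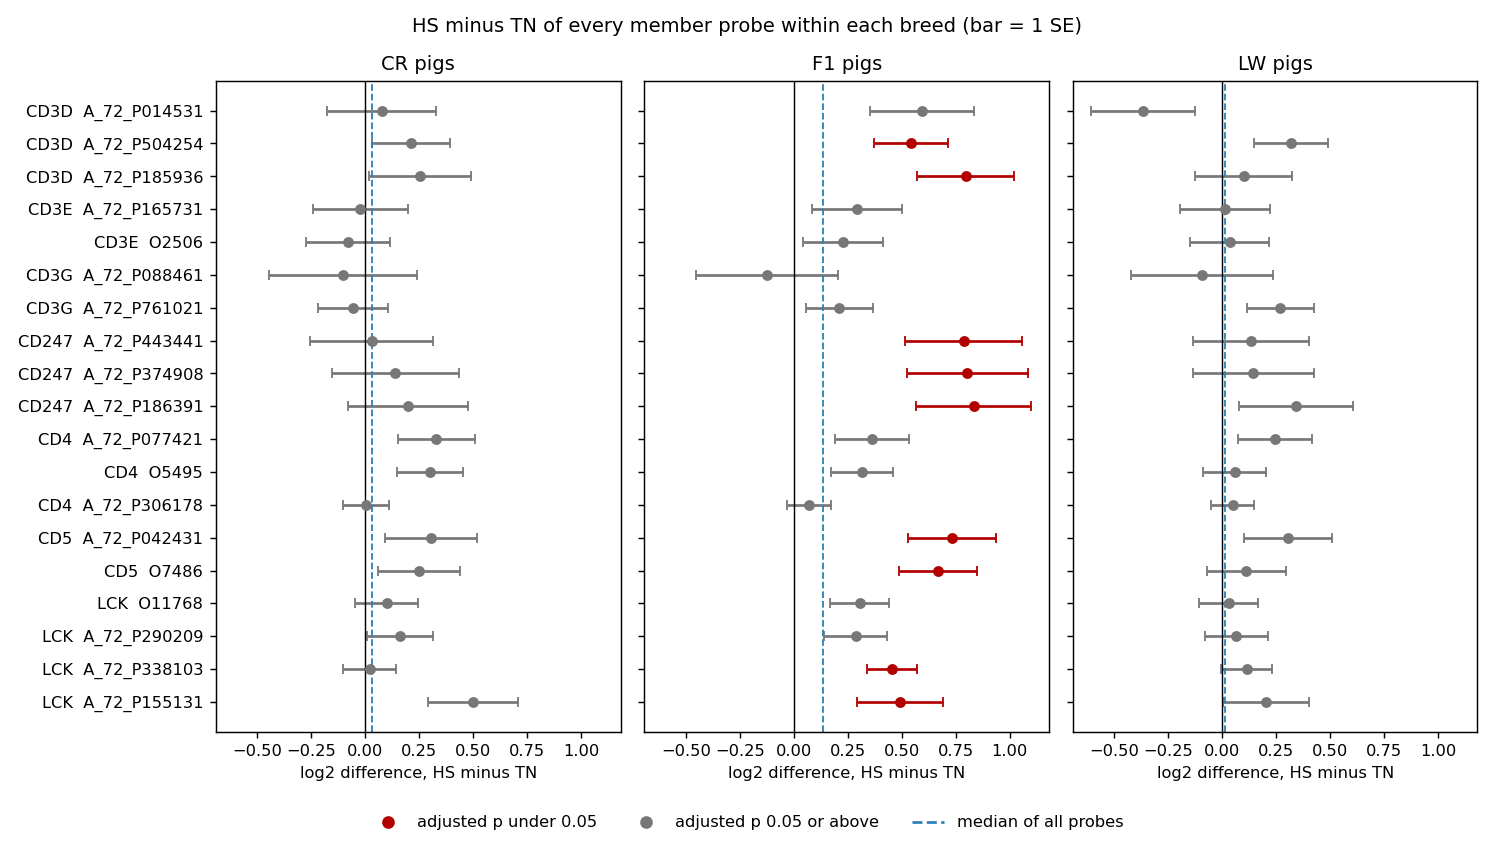
Log2 difference HS minus TN (bars show the SE) of the member probes within CR, F1 and LW pigs. The F1 values are centred at a median of 0.46 and those of CR and LW at 0.14 and 0.11, and 0 probes were called outside F1.

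Between breeds, with climate in the model, 1 member probe was called. In CR minus LW, 421 of all probes (1.08%) were called, 0.507% as lower in CR, and the member among them was CD3G A_72_P761021, lower in CR by 0.47 on the log2 scale (SE 0.11, limma adjusted p = 0.0259). The 5 CR TN pigs had 6.44, 6.88, 6.97, 6.99 and 7.19 with this probe and the LW TN pigs ranged from 7.03 to 7.30 (median 7.22). CR HS pigs ranged from 6.32 to 7.33 (median 6.79) and LW HS pigs from 7.17 to 7.66 (median 7.50). CR and LW pigs overlapped in both climates, and the call was lost when any 1 of 5 pigs was left out (CR HS replicates 1 and 6, CR TN replicate 4, LW HS replicates 2 and 3). The other CD3G probe, A_72_P088461, had r = 0.27 with it over the 35 pigs. In CR minus LW 18 of 19 member probes lay below 0, with a median of −0.28 against −0.01 for all probes, and 7 had an unadjusted p under 0.05, where 10.1% of all probes did. The largest of the uncalled was CD3D A_72_P014531 with −0.51 (adjusted p = 0.258).

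In F1 minus LW 0 member probes were called, with 0.0256% of all probes called and 4 member probes at an unadjusted p under 0.05 (4.48% of all). In F1 minus CR, where 0.184% of all probes were called, and in F1 minus the mean of CR and LW, with 0.0717%, no member probe passed. At an unadjusted p under 0.05 the counts were 0 and 1 (4.95% and 2.99% of all probes), the latter for CD3G A_72_P088461 with −0.46. These contrasts share groups, so they are not independent of one another.

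Ordering the 6 groups by the mean of the brightest probe of each gene, no gene had neighbouring groups that were separated: every gap was smaller than the larger SD of the neighbours and every pair of neighbouring ranges overlapped. F1 TN was the lowest group for CD3D, CD3E, CD247, CD4 and CD5, F1 HS for CD3G and CR TN for LCK. For CD3D A_72_P014531, LW TN pigs had the highest log2 level (12.45 ± 0.30, SD, n = 6) and F1 TN pigs the lowest (11.58 ± 0.34, SD, n = 6). CD4 A_72_P077421 had its highest level in LW HS (6.86 ± 0.33, SD, n = 6), with F1 TN (6.34 ± 0.31, SD, n = 6) and CR TN (6.34 ± 0.13, SD, n = 5) at the bottom.

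**Figure D3:**
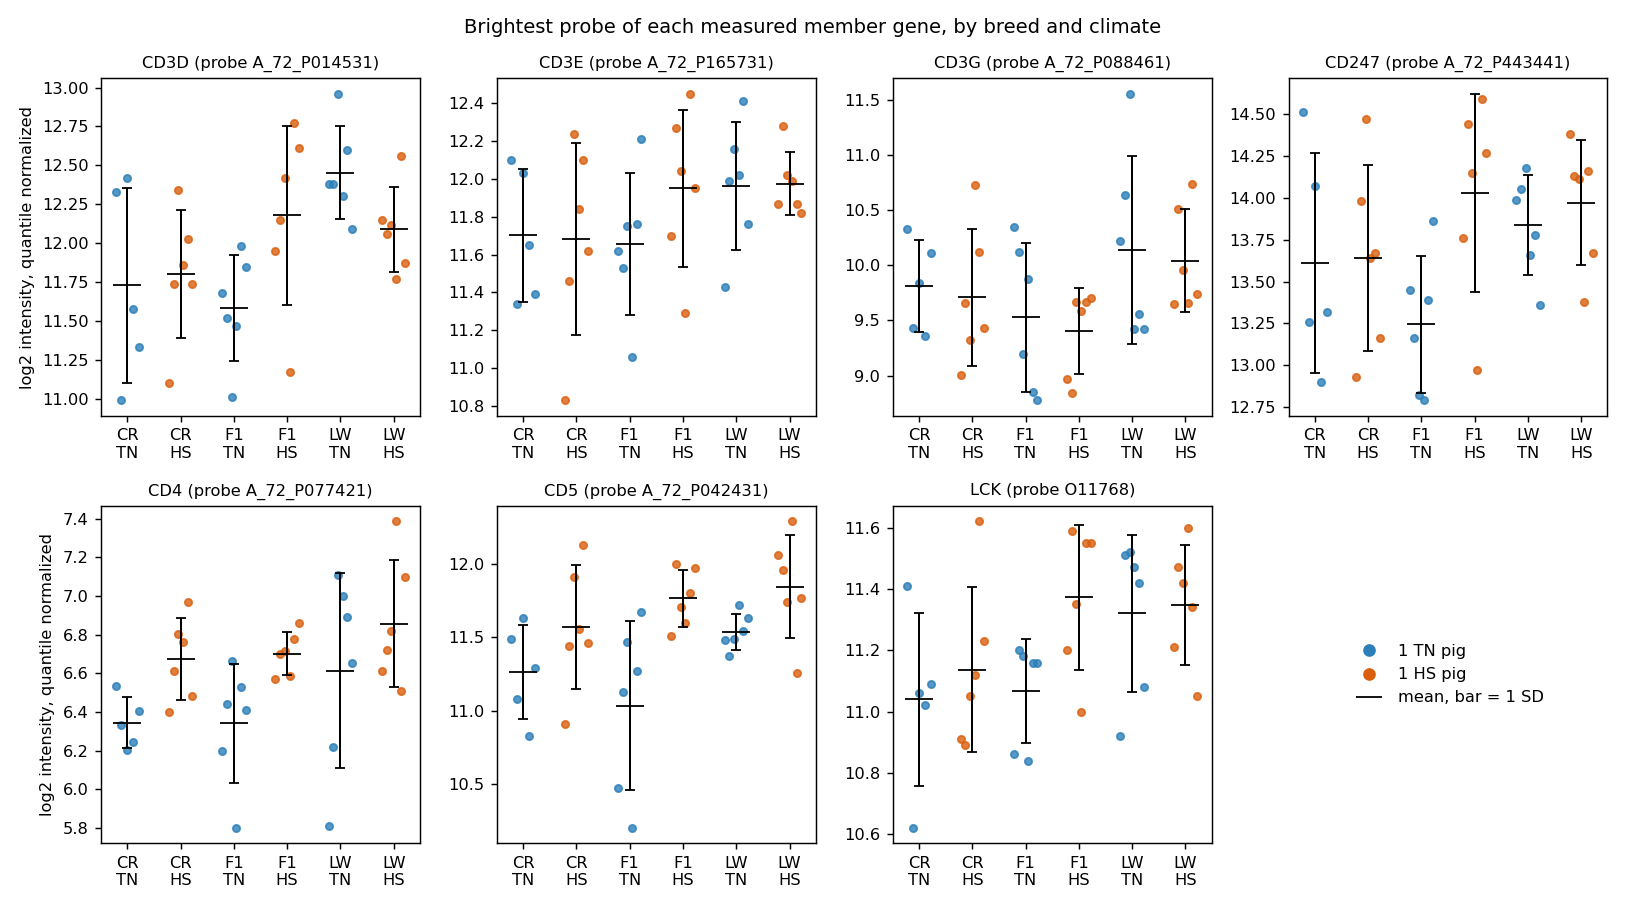
Deposited log2 value of each pig (points) and group mean with SD (bars) for the member genes in the 6 groups of breed and climate. Neighbouring groups overlap for all 7 genes, and F1 TN has the lowest mean for CD3D, CD3E, CD247, CD4 and CD5.

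Correlation between the members across the pigs was uneven. Each gene, taken by its brightest probe, correlated with the mean of the standardized members with r of 0.878 for CD3E, 0.843 for LCK, 0.826 for CD3D, 0.801 for CD247, 0.763 for CD5 and 0.673 for CD4, but 0.366 for CD3G. Each gene is part of that mean, which raises its r. The closest pair of genes was CD3D and CD247 (r = 0.814) and the least alike CD3G and CD5 (r = −0.08). CD3G had r of at most 0.365 with any other member, and CD4 had 0.711 with CD5 and 0.622 with LCK but 0.27 with CD247 and 0.291 with CD3D. Probes of 1 gene ranged from r = 0.27 for CD3G to 0.982 for the overlapping CD3E probes, and the 3 CD247 probes lay between 0.894 and 0.964. All of these describe 35 pigs whose genes were read on the same array and in the same mixture of cells. The mean log2 level of the 7 genes was highest in LW TN replicate 3 (11.57) and lowest in F1 TN replicate 4 (10.29) and CR HS replicate 1 (10.3).

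Other genes of the pathway were taken by their brightest probe and read against all 8897 named genes, of which 39.6% were called, 22.7% as higher and 16.8% as lower in HS. Of 14 measured coreceptors and adhesion receptors, 6 were higher and 0 lower. The share called, 42.9%, was near that of all named genes, and the median log2 difference was 0.23 against 0.06. SLAMF1, a self-binding costimulatory receptor, rose by 0.37 (SE 0.10, limma adjusted p = 0.00439). CD2, the receptor for CD58, rose by 0.33 (SE 0.11, adjusted p = 0.0219) and CD27, a costimulator of the tumour necrosis factor receptor family, by 0.32 (adjusted p = 0.0496). SIT1, LAX1 and CD84 rose by 0.28, 0.25 and 0.27, SIT1 and LAX1 being adaptors of the membrane that dampen antigen receptor signalling. The chains of CD8, the coreceptor for class I molecules, gave 0.27 for CD8B (adjusted p = 0.103) and 0.01 for CD8A (adjusted p = 0.983). Of the list of receptor chains 1 of 15 was measured, PTCRA, at 0.04 (adjusted p = 0.855).

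Kinases and adaptors that act next were called in both directions. Of 22 measured genes 9 were higher and 3 lower in HS (54.5% called, against 39.6% of all named genes), or 40.9% higher and 13.6% lower against 22.7% and 16.8%. GRAP2, the adaptor that joins LAT to SLP-76, rose by 0.50 (SE 0.12, limma adjusted p = 0.00294), and TXK, a Tec family kinase, by 0.39 (adjusted p = 0.00584). DEF6, GRB2, SKAP1, VAV1, SHC1, SLA2 and PLCG1 rose by 0.23 to 0.32. SOS1, an exchange factor for Ras, fell by 1.05 (SE 0.22, adjusted p = 0.00165) and NCK1, an adaptor to the actin skeleton, fell by 0.99 (SE 0.24, adjusted p = 0.00332). The SOS1 value comes from 1 probe, and of the 4 NCK1 probes 1 was called. VAV3 fell by 0.44 (adjusted p = 0.0199) with its brightest probe, and 2 of its 6 probes were called, over a range of −0.62 to 0.13. FYN, the Src kinase closest to LCK in T cells, gave 0.07 with its brightest probe, while 4 of its 5 probes were called as higher, over a range of 0.07 to 0.43.

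**Figure D4:**
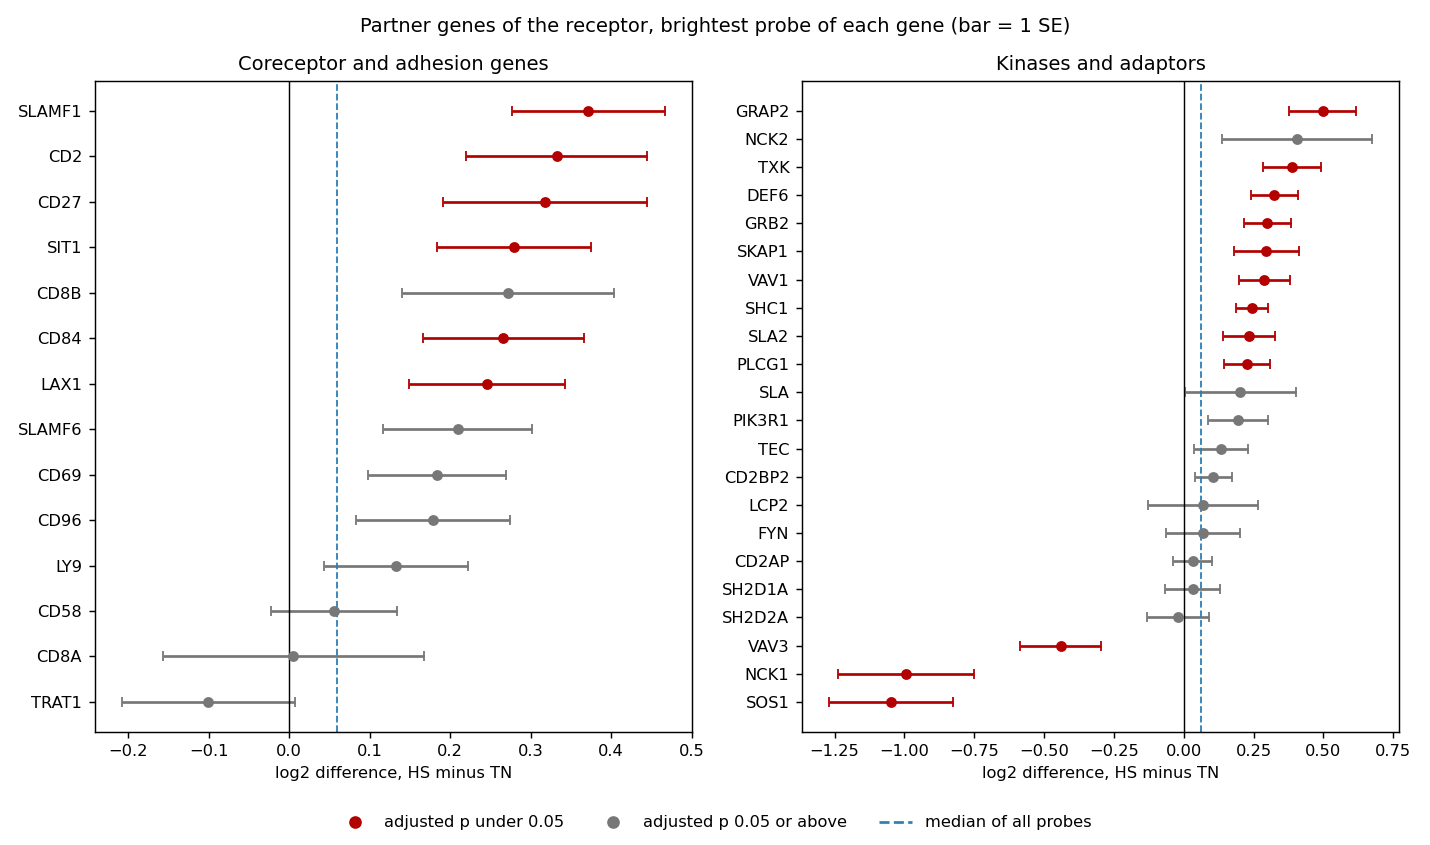
Log2 difference HS minus TN (bars show the SE) for genes of the coreceptor and adhesion list and the kinase and adaptor list, each by its brightest probe. GRAP2 (0.50) lies at the upper end, and SOS1 (−1.05) and NCK1 (−0.99) at the lower end.

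Further along the pathway, 42.9% of the downstream genes and 42.9% of the negative regulators were called, near the 39.6% of all named genes, and 27.8% of the T lineage, 22.2% of the homing and 25% of the costimulation genes, below it. Of 35 measured downstream genes 13 were higher and 2 lower. RELA gave −1.30 with its brightest probe, but of its 4 probes 1 was called as lower and 2 as higher. Its highest probe value was 0.34. NFKB1, like RELA a subunit of NF-kappaB, rose by 0.39 and STIM1, the calcium sensor of the endoplasmic reticulum, by 0.37. Of 14 negative regulators 5 were higher and 1 lower, among them the docking proteins DOK2 (0.47) and DOK1 (0.29) and the ubiquitin ligase CBL (0.37). Of 8 costimulation and checkpoint genes 2 were higher, LAG3 (0.36) and CD80 (0.31), CD80 being a ligand on antigen presenting cells rather than a T cell receptor. The other CD80 probe gave −0.08 and was not called. Of 18 transcription factors and other genes of the T lineage 3 were higher and 2 lower, with ETS1 at 0.39, TBX21 (T-bet) at −0.48 and RUNX3 at −0.66. Of 18 homing and cytokine receptors 3 were higher and 1 lower: CCR6 (0.50), CCR7 (0.39), the lymph node homing receptor, and S1PR1 (0.34), the receptor for lymphocyte exit, were higher, and CXCR3 (−0.76), the receptor for interferon-induced chemokines, was lower.

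Among lists that mark other blood cells, red cell genes had the highest share called. Of 20 measured red cell genes 11 were lower and 1 higher in HS (60% called, against 39.6% of all named genes), with a median of −0.73. CA1 (carbonic anhydrase) fell by 1.41. TFRC (the transferrin receptor of immature red cells) fell by 1.11 with its brightest probe, and 1 of its 3 probes was called. SLC4A1, the anion exchanger of the mature membrane, rose by 0.27 with its brightest probe, while its other probe gave −0.58 and was not called. HBB, the beta globin gene, was at −0.13 and not called. The other lists had 36.4% (B cell), 33.3% (monocyte), 18.8% (cytotoxic), 9.09% (platelet) and 8.33% (neutrophil) called, none above the share of all named genes. B cell genes were higher for 4 of 11 and lower for 0 (MS4A1 0.38, POU2AF1 0.37, CD79B 0.35). Their share called as higher was 36.4%, against 22.7% of all named genes. All 11 B cell genes lay above 0, with a median of 0.28. The members by brightest probe had 6 of 7 above 0 and a median of 0.15. Cytotoxic and natural killer cell genes were lower for 3 of 16 and higher for 0 (KLRK1 −0.75, GZMM −0.69, GNLY −0.43). Of 12 neutrophil genes 1 was lower (ELANE −0.97), of 12 monocyte genes 3 were higher and 1 lower (CSF1R 0.51, VCAN 0.48, MRC1 −0.78), and of 11 platelet genes 1 was lower (THBS1 −0.57). The second probes of GZMM and MRC1 gave 0.10 and 0.12 and were not called. Of the 7 THBS1 probes 1 was called.

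From pig to pig the mean of the members ran against the red cell list, most closely in F1. By brightest probe over the 35 pigs, r with the list ran from −0.729 for CD5 to −0.289 for CD3D. CD3G had 0.234. The mean log2 level of the red cell list ranged from 10.57 to 12.64 in F1 TN pigs and from 9.25 to 11.05 in F1 HS pigs. In CR the ranges were 10.4 to 11.78 (TN) and 9.79 to 11.51 (HS), and in LW 10.77 to 11.72 and 10.22 to 11.31. The red cell mean was lower in HS by 1.11 in F1, where the mean of the members was higher by 0.42. In CR the same differences were −0.54 and 0.10, and in LW −0.34 and 0.04. The r between the mean of the standardized members and the red cell list was −0.574 over the 35 pigs and −0.577, −0.890 and −0.342 within the 11 CR, 12 F1 and 12 LW pigs. With the red cell mean as a covariate, limma called 0 of 19 member probes and 1 of all 39072 probes for HS minus TN, with 15 of 19 members above 0 and a median of 0.07. Leaving out the F1 pigs, whose TN arrays were also the dimmest, limma called 0 member probes and 0 of all probes, with 15 of 19 above 0 and a median of 0.11. The part of red cell RNA and of array brightness in the HS minus TN difference was not tested.

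**Figure D5:**
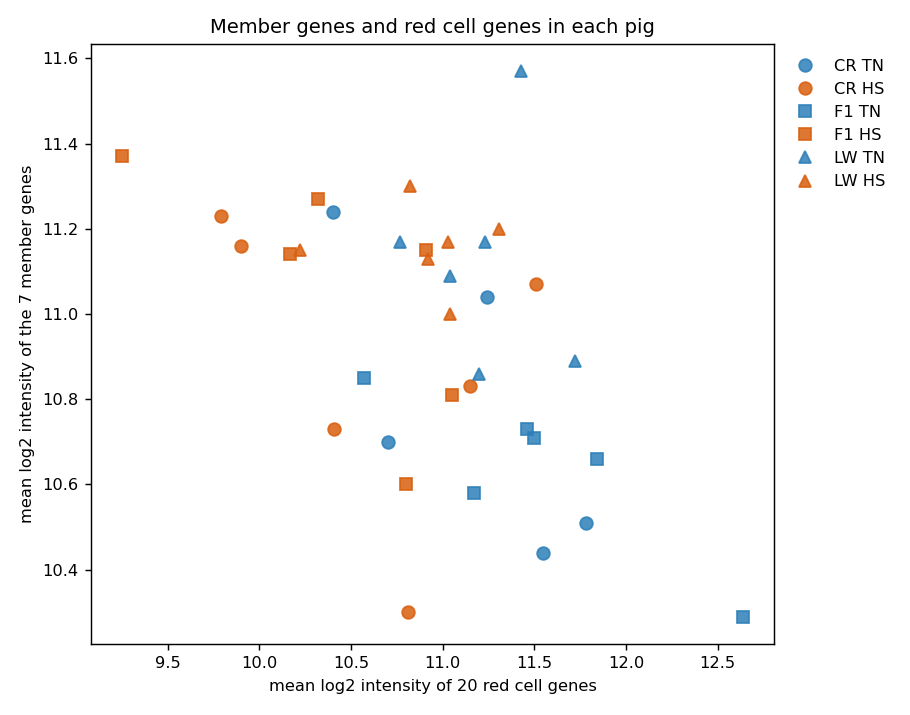
Mean log2 level of the 7 member genes (vertical axis) against the mean log2 level of the 20 red cell genes (horizontal axis), 1 point per pig, coloured by group. F1 TN pigs lie at the right and low, F1 HS pigs at the left and higher. The r between the plotted levels is −0.865 within F1, −0.527 within CR and −0.104 within LW.

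Against the other lists the members had r of 0.905 with the coreceptor and adhesion list (0.886 after removing the 6 group means), 0.866 with the T lineage list and 0.763 with the homing list. They had 0.173 with the B cell list, 0.143 with the cytotoxic list, −0.401 with the neutrophil list and −0.514 with the monocyte list. Among 8890 named genes outside the members, the profile most like the mean of the members over the 35 pigs was that of RGS3 (r = 0.902), followed by CAMKK2 (0.879), BCL9L (0.870), AES (0.855), RHOF (0.848), S1PR1 (0.843), ID4 (0.840), PUF60 (0.838), PVRIG (0.838) and DYRK2 (0.833). The median r was 0.113, and 25 genes exceeded 0.8. RHOF, S1PR1, PUF60, PVRIG and RGS3 were higher in HS, by 0.20 to 0.35 on the log2 scale.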

How the data were processed

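Whole-blood RNA of 35 pigs was hybridised to custom porcine Agilent arrays read with Feature Extraction 10.10.1.1. The authors deposited log2 values obtained by quantile normalization of median intensities, after which expressed probes were retained by a rule that is not stated. These log2 values were the main measure, and all 35 columns carried a sample name. The deposited scanner intensity, not normalized between arrays, gave probe names, sequences, background calls and alternative scalings.

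Groups came from the labels. Each of the 39072 probes was fitted with limma 3.58.1 in R 4.3.3 (lmFit, eBayes, two-sided). HS minus TN and breed contrasts used breed plus climate, and effects within breeds and the interaction used 6 group means. The study's random effects of pen, slaughter day, father and mother were left out, as the labels lack them. Scripts were tested on simulated data. A gene on a list was represented by its brightest probe. All member probes, up to 3 called genes with the largest difference of each other list, and the partner genes were named, except 1 gene that is not reported here. Members and lists were chosen with earlier results of these data known. Figures were drawn with matplotlib 3.10.9. Arrays give no counting depth, and their number limits precision.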

Additional observations from a re-analysis of the deposited data

Results flagged for a closer look

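Of 114 sets of 4 or more pigs of 1 group and probe, 2 had a pig whose gap to the nearest other pig, relative to the whole range, exceeded Dixon's 95% critical value. Chance gives such a gap in about 1 in 20 sets. With CD247 A_72_P374908, LW TN replicate 3 had a log2 value of 12.97, against 11.95 to 12.24 in the other LW TN pigs. With LCK A_72_P338103, the probe shared with TXLNA, F1 HS replicate 4 had 8.938, against 9.129 to 9.229 in the other F1 HS pigs.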

How the results depend on the processing

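With the red cell mean as a covariate, the called member probes went from 9 to 0 and the member genes, by brightest probe, from 2 to 0, both for HS minus TN and within F1, and all called probes from 13601 to 1 and from 15108 to 2298. Without F1 pigs HS minus TN gave 0 member probes, 0 member genes and 0 probes in all. Taking genes as the mean of their probes gave 4 genes (CD3D, CD4, CD5 and LCK) and, in F1, 4 genes with CD247 in place of CD4. The share of all genes called in this way was not counted. In CR minus LW the covariate gave 2 member probes, 1 member gene and 756 probes in all, and array weights gave 1097 in place of 421. Array weights also gave 1111 probes in LW in place of 0 and 161 in F1 minus CR in place of 72. The 10 probes of F1 minus LW became 6 with requantified scanner values, 4 with the 75th percentile, 0 with normexp, 1 without a filter, 1 with a strict filter, 2 with slide as a block, 54 with weights and 35 with the covariate. For HS minus TN, leaving out 1 pig gave 6 to 11 member probes and 2 to 3 genes. The same fits called 11594 to 16429 of all probes. In F1 the counts were 6 to 11 member probes and 1 to 4 genes, with 11504 to 16478 of all probes called. CR minus LW gave 0 to 1 member probes, with 299 to 474 of all probes called. Over all probes, F1 minus LW gave 0 to 19 and F1 minus the parental mean 16 to 32. Calls were lost for CD3D A_72_P185936 without any of 7 pigs (F1 TN replicates 1, 2 and 4, F1 HS 3, 5 and 6, CR TN 2; adjusted p of 0.0506 to 0.0540), for LCK A_72_P338103 without any of 6 (F1 HS 2, 3 and 5, F1 TN 2 and 4, CR HS 5; 0.0515 to 0.0582) and for CD4 O5495 without any of 17 (F1 HS 1, 2, 5 and 6, F1 TN 1, 2, 4 and 6, CR TN 2, 4 and 5, CR HS 3, 4 and 5, LW TN 1 and 2, LW HS 4; 0.0518 to 0.0715). CD247 A_72_P374908 was called without CR TN 1 or 3, CR HS 1 or LW TN 3 (0.0214 to 0.0452), and CD247 A_72_P443441 without CR TN 1 (0.0420). No HS minus TN difference of a member probe changed sign when 1 pig was left out. Signs turned with the covariate for CD3D A_72_P014531 (−0.11), CD3E A_72_P165731 (−0.18), CD3E O2506 (−0.16), CD3G A_72_P088461 (0.0341) and LCK O11768 (−0.0343). Without F1 pigs they turned for CD3D A_72_P014531 (−0.16), CD3E A_72_P165731 (−0.00506) and CD3E O2506 (−0.0208). The cause of these shifts was not tested. Within the 5 slides 15, 15, 18, 19 and 16 of the 19 differences lay above 0, and of the 9 called probes only CD4 O5495 turned (−0.15, on the slide with 4 arrays). Scanner-based scalings called 8 to 9 member probes. With requantified scanner values, the 75th percentile and normexp, 8074, 7609 and 8246 of all probes were called as higher in HS. As lower, 5712, 6414 and 5685 were called. No paired analysis was possible because the labels give no replicate numbers and the numbers used only name pigs in record order.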
